A study of Mus musculus with 6 samples.

Results

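The clustered protocadherins are 3 neighbouring gene families, alpha, beta and gamma, that encode cell-surface adhesion proteins. All rows of the deposited gene table whose Entrez identifier carries a mouse symbol beginning with Pcdha, with Pcdhb and a digit, or with Pcdhg were taken, which gave 57 of 24421 rows: 14 alpha, 21 beta and 22 gamma genes. They lie on chromosome 18 (GRCm38, RefSeq annotation), alpha at 36930285 to 37188897, beta at 37264998 to 37521419 and gamma at 37661775 to 37841873. Pcdhb21, a further annotated beta gene, was not analysed here.

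The libraries came from mouse germinal vesicle (GV) oocytes, fully grown and still arrested in meiotic prophase. The first genotype, DKO, was Ring1 -/- and Rnf2 f/f and carried the Zp3-cre transgene, whose promoter is active in growing oocytes. The other, SKO, was Ring1 -/- and Rnf2 f/f without the transgene. Ring1 and Rnf2 encode the E3 ubiquitin ligases at the core of Polycomb repressive complex 1, and the comparison addresses what the loss of Rnf2 during oocyte growth does to expression when Ring1 is already absent. Both genotypes lack Ring1, neither is wild type, and only DKO has the Cre transgene, so transgene and deletion cannot be told apart. Each genotype had 3 libraries, each made from 15 oocytes pooled from 1 female of about 3 months on a mixed FVB, 129/Sv and C57BL/6J background.

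Clustered protocadherins are best known from neurons, where each cell expresses a small set of them and the proteins bind copies of themselves on other cells, which lets a neuron tell its own branches from those of others. In the alpha and gamma clusters each gene supplies its own large first exon, called variable, which is spliced to exons near the end of the cluster that all genes of that cluster share, called constant. The beta genes have no constant exons. Promoter choice in neurons involves the insulator protein Ctcf and cohesin, and silencing of the unchosen promoters involves DNA methylation, Smchd1 and H3K9 methylation. The clusters were chosen by the count difference between DKO and SKO that is described here, so the levels and fold changes of members are given as a description, with no p-value.

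The alpha and gamma clusters were higher in DKO oocytes and the beta cluster was mixed. The reads behind all 14 alpha genes were at 23.2 ± 0.48 CPM in DKO, against 3.23 ± 2.66 CPM in SKO (SD, n = 3 each). CPM is a gene's count scaled to the library's total, after adjusting that total by a TMM scaling factor, and shown per 1000000. The reads behind all 22 gamma genes were at 1.38 ± 0.19 CPM in DKO, against 0.208 ± 0.099 CPM in SKO. Among the beta genes Pcdhb3 was at 1.64 ± 0.57 CPM in DKO, against 0.0921 ± 0.16 CPM in SKO. Most of the beta genes were close to silent in both genotypes. Pcdhb17, the most abundant, had 148 counts or more in every library. In pooled oocytes, fewer expressing cells and less RNA per cell cannot be told apart. The summed level of 13 granulosa and cumulus markers was 182 to 210 CPM in DKO and 109 to 135 CPM in SKO. Nr5a2 (117 CPM in DKO, 79.2 in SKO) and Fshr (30.7 in DKO, 0.506 in SKO) made up most of the gap. The means of Inhba (5.44 in DKO, 1.35 in SKO) and Gja1 (4.39 in DKO, 0.952 in SKO) were also higher in DKO. So was that of Kitl (12.5 in DKO, 6.61 in SKO), with overlap between the genotypes. Cyp19a1 (17 in DKO, 30 in SKO) and Amh (0.795 in DKO, 1.63 in SKO) lay the other way, Amh with overlap between the genotypes. The means of Inha, Inhbb and Foxl2 were higher in DKO, each with overlap between the genotypes. Hsd17b1 (36 counts in DKO, 35 in SKO) and Amhr2 (7 in DKO, 8 in SKO) were about level. Slc38a3 had 6 counts in DKO and 0 in SKO. The summed level of 12 theca, stroma and endothelium markers was 78.3 to 96.6 CPM in DKO and 96.5 to 130 CPM in SKO. Pecam1 made up most of that sum (61 in DKO, 109.6 in SKO). Kdr (11.6 in DKO, 3.68 in SKO), Pdgfra (4.99 in DKO, 0.766 in SKO) and Dcn (3.43 in DKO, 0.519 in SKO) lay the other way. Star was about level (1.11 in DKO, 1.17 in SKO). Lhcgr, Col1a1, Col3a1 and Lum had more counts in DKO. Cyp17a1 (5 counts in DKO, 16 in SKO) and Col1a2 (0 in DKO, 4 in SKO) had fewer. Cdh5 had 3 counts in DKO and 0 in SKO. The part of granulosa, theca, stroma and endothelium cells in the protocadherin levels was not tested.

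**Figure D1:**
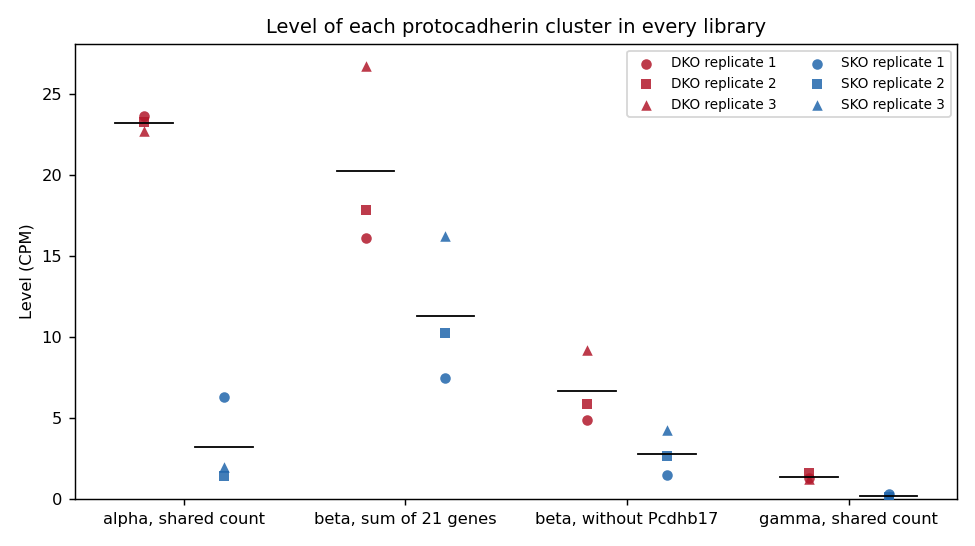
Level of each cluster in CPM on a linear axis, with 1 point per library (DKO left, SKO right, marker shape for the replicate number) and a bar at the mean of 3. The alpha shared count lies between 22.7 and 23.6 CPM in DKO and between 1.43 and 6.28 CPM in SKO, while the sums over the beta genes just overlap.

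The alpha and gamma rows are not separate measurements, since genes of a cluster share exons in the annotation. The same count in all 6 libraries stood in 5 alpha rows (Pcdha1, Pcdha3, Pcdha4, Pcdha5 and Pcdha9), and the 14 rows held 10 distinct sets of counts. Of the 22 gamma rows, 8 were identical and 15 sets were distinct. All 21 beta rows were distinct. GENCODE M21 (GRCm38) gives 14 alpha transcripts 3 shared exons of 2860 bases in all and 21 gamma transcripts 3 shared exons of 2116 bases, and gives a single exon to each of the 21 beta genes. The smallest count among the rows of a cluster in a library is therefore an upper limit for what all its rows hold in common. It is called the shared count here, and what a row holds beyond it is called its excess.

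Calls were taken from edgeR's quasi-likelihood test over all 14845 genes that passed a filter on low counts, with Benjamini-Hochberg adjusted p under 0.05. Over all genes tested 24.7% were called, 17.3% as higher in DKO and 7.41% as lower. Beside that, all 10 distinct alpha vectors were called higher, as were all 15 distinct gamma vectors and 1 of 4 tested beta genes, and 0 of the members were called lower, also at an unadjusted p under 0.05 and with DESeq2. Nothing is read from these counts, since this contrast chose the genes and the vectors within a cluster repeat the same reads. All 14 alpha rows would pass the filter on the SKO libraries alone, but 0 of the 22 gamma rows would, so the gamma rows entered through DKO, where they are high. The same holds for Pcdhb3 and Pcdhb15, while Pcdhb8 and Pcdhb17 would pass on SKO alone. Without SKO replicate 2, or without SKO replicate 3, only 4 of the 15 distinct gamma vectors were called. The median log2 fold change over the distinct tested vectors was 2.84 for alpha, 0.86 for beta and 2.76 for gamma, against 0.04 over all genes tested.

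Pcdha1, one of the 5 identical rows, shows the alpha shared count itself. It had 415, 495 and 584 counts in the DKO libraries, against 156, 31 and 48 counts in the SKO libraries. On the scale of CPM these were 23.6, 23.3 and 22.7 in DKO and 6.28, 1.43 and 1.97 in SKO. The DKO libraries lay within 1 CPM of each other and above every SKO library, and SKO replicate 1 stood well above the other two SKO libraries. The ratio of the mean levels was 7.19 (log2 2.85), and without SKO replicate 1 its log2 was 3.75 (library scaling recomputed). The summed levels of the granulosa and of the theca, stroma and endothelium markers in SKO replicate 1 lay inside the range of the SKO libraries. In SKO replicates 1, 2 and 3, the granulosa sum is mostly Nr5a2 (77.85, 69.92 and 89.74 CPM) and Cyp19a1 (33.61, 23.08 and 33.33 CPM). Cyp19a1, Inha (3.14, 2.12 and 1.19 CPM), Inhbb (1.13, 0.184 and 0.411 CPM), Amh and Foxl2 were highest in SKO replicate 1. Nr5a2, Inhba, Gja1, Kitl, Fshr, Hsd17b1 and Amhr2 were highest in another SKO library. The theca, stroma and endothelium sum is mostly Pecam1 (115, 90.2 and 123 CPM in SKO replicates 1, 2 and 3). Kdr (4.79, 3.41 and 2.84 CPM) and Pdgfra (1.09, 0.553 and 0.658 CPM) were highest in SKO replicate 1. Star (0.564, 1.7 and 1.23 CPM) was lowest there. The sum of the blood and immune markers in SKO replicate 1 was the highest of the SKO libraries at 3.3 CPM. The part of such cells in the value of that library was not tested.

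Pcdhac2 stood out among the alpha genes. It is one of the C-type genes at the end of the cluster, which in neurons are expressed without the random choice made among the other alpha genes, and in the mouse it is needed for the spacing of serotonergic axons. Its row held 512, 636 and 731 counts in DKO, against 163, 34 and 48 counts in SKO (29.1 ± 0.75 CPM and 3.37 ± 2.77 CPM). Beyond the shared count it held 97, 141 and 147 counts in DKO, against 7, 3 and 0 counts in SKO. This excess was 5.95 ± 0.59 CPM in DKO and 0.14 ± 0.14 CPM in SKO, where replicates 2 and 3 were at or under the floor of 3 counts, and every DKO library lay above every SKO library. The log2 fold change of the whole row was 3.11 (SE 0.49), close to the 2.84 of Pcdha1, because the shared reads make up most of either row. Without SKO replicate 1 it was 4.02. The excess was 18.9% of the row in DKO replicate 1 (exact Clopper-Pearson 95% interval 15.6 to 22.6%), 22.2% in replicate 2 (19 to 25.6%) and 20.1% in replicate 3 (17.3 to 23.2%). In SKO replicate 1 it was 4.29% (1.74 to 8.65%).

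The other alpha genes had little of their own in either genotype. Pcdha1, Pcdha3, Pcdha4, Pcdha5 and Pcdha9 had an excess of 0 in every library. Pcdha11 had an excess of 2, 11 and 14 counts in DKO, against 5, 10 and 9 counts in SKO, so the genotypes overlapped (0.391 ± 0.24 and 0.344 ± 0.13 CPM). Pcdha10 had 7, 2 and 15 counts in DKO, against 9, 0 and 0 in SKO, again with overlap. Pcdhac1, the other C-type alpha gene, had an excess of 7, 0 and 0 counts in DKO, against 9, 0 and 3 in SKO. Pcdha12 had 5, 4 and 8 counts in DKO, against 0, 3 and 0 in SKO, where every library was at or under the floor of 3 counts. Of all the excess in the cluster, Pcdhac2 held 82.1% of 469 counts in DKO and 16.9% of 59 counts in SKO.

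Levels per base also differed within the cluster. The shared exons carried 8.11 ± 0.17 CPM per kilobase in DKO and 1.13 ± 0.93 in SKO, using the GENCODE length of the shared exons. The remaining 2566 bases of the Pcdhac2 row carried 2.32 ± 0.23 CPM per kilobase in DKO and 0.0546 ± 0.055 in SKO. Summed over all 14 rows, the excess came to 7.25 ± 0.34 CPM in DKO and 0.826 ± 0.35 CPM in SKO, less than the shared count in either genotype. The sources used here do not name the annotation that was counted, so these lengths are approximate.

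**Figure D2:**
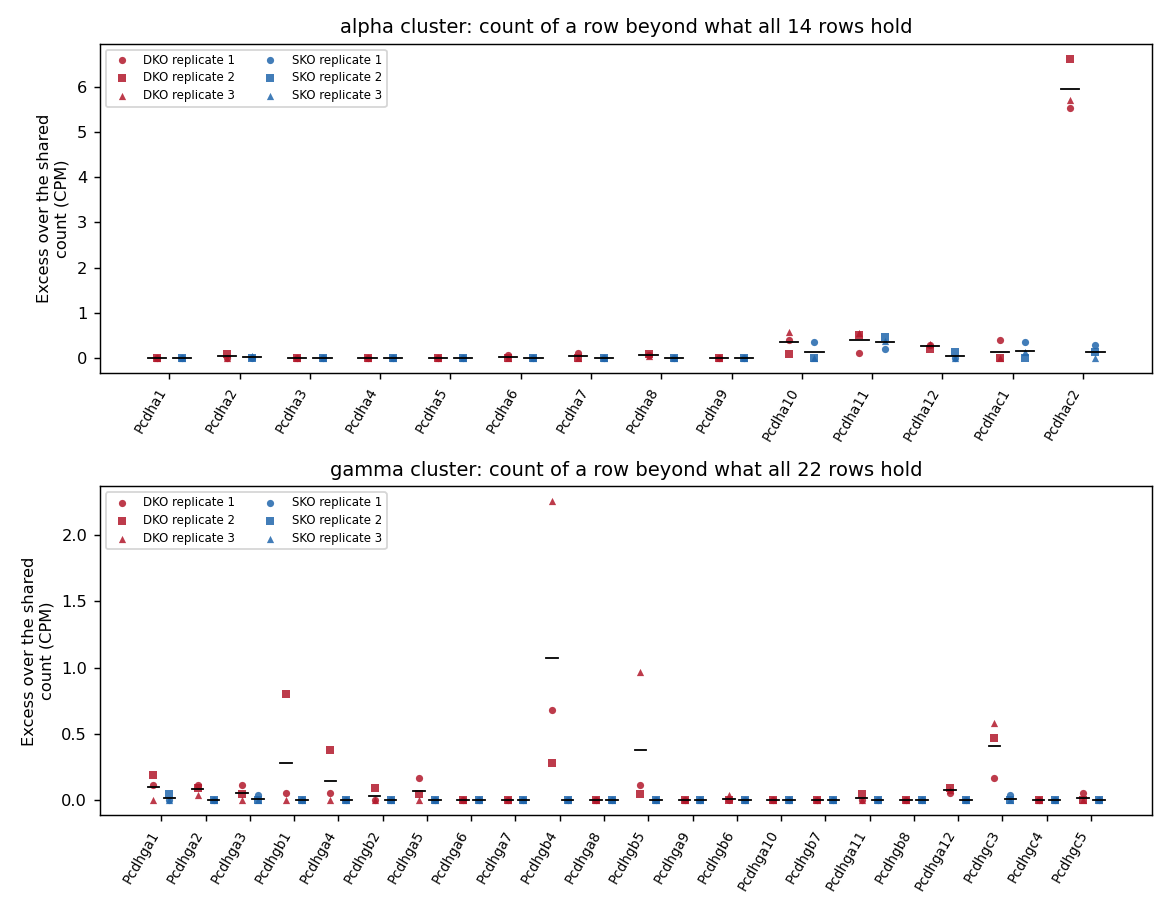
Excess of each alpha row (top) and gamma row (bottom) over the shared count of its cluster, in CPM, with 1 point per library (DKO left, SKO right) and a bar at the mean of 3. Pcdhac2 lies apart from the other alpha genes in all 3 DKO libraries, and Pcdhgb4, Pcdhgb5, Pcdhgc3 and Pcdhgb1 carry most of the gamma excess.

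The gamma cluster was measured at a level far below that of alpha. Its shared count was 23, 34 and 32 in the DKO libraries, against 8, 3 and 4 in the SKO libraries, and the genotypes did not overlap. The ratio of the mean levels was 6.64 (log2 2.73). Per kilobase of shared exon this was 0.654 ± 0.089 CPM in DKO and 0.0984 ± 0.047 in SKO. SKO replicate 1 was again the highest of the SKO libraries, here by 4 counts or more. The 8 identical rows had this count and an excess of 0 in every library, among them Pcdhgc4, a C-type gene known in the mouse for its part in the survival of neurons. Pcdhgc5, another C-type gene, had an excess of 1 count in DKO replicate 1 and 0 in every other library.

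Single gamma genes with counts of their own differed from one DKO library to the next. Pcdhgb4 had the largest excess, with 12, 6 and 58 counts in DKO, against 0, 0 and 0 in SKO. More than 3 in 4 of its excess in DKO came from replicate 3. Pcdhgb5 followed the same library, with an excess of 2, 1 and 25 counts in DKO, against 0 in each SKO library. Pcdhgb1 had 1, 17 and 0 counts in DKO, so that replicate 2 held nearly all of it, against 0 in each SKO library. Pcdhgc3, the C-type gene whose protein binds Axin1, was the more even one, with 3, 10 and 15 counts in DKO, against 1, 0 and 0 in SKO. These 4 were the gamma genes with an excess over 10 counts in DKO, and the other 18 had 10 or fewer. In all, the gamma excess was 187 counts in DKO and 3 counts in SKO. An excess of 0 counts allows up to 3 counts, which is 0.116 to 0.171 CPM in the DKO libraries and 0.121 to 0.138 CPM in the SKO libraries.

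Whole gamma rows ranged from Pcdhga6, with 1.38 ± 0.19 CPM in DKO and 0.208 ± 0.099 CPM in SKO, to Pcdhgb4, with 2.46 ± 0.9 CPM in DKO and 0.208 ± 0.099 CPM in SKO. The log2 fold changes of the tested gamma rows lay between 2.66 and 3.52, and those of the alpha rows between 2.72 and 3.11. In the fit they are set by the shared count in all but a few rows.

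**Figure D3:**
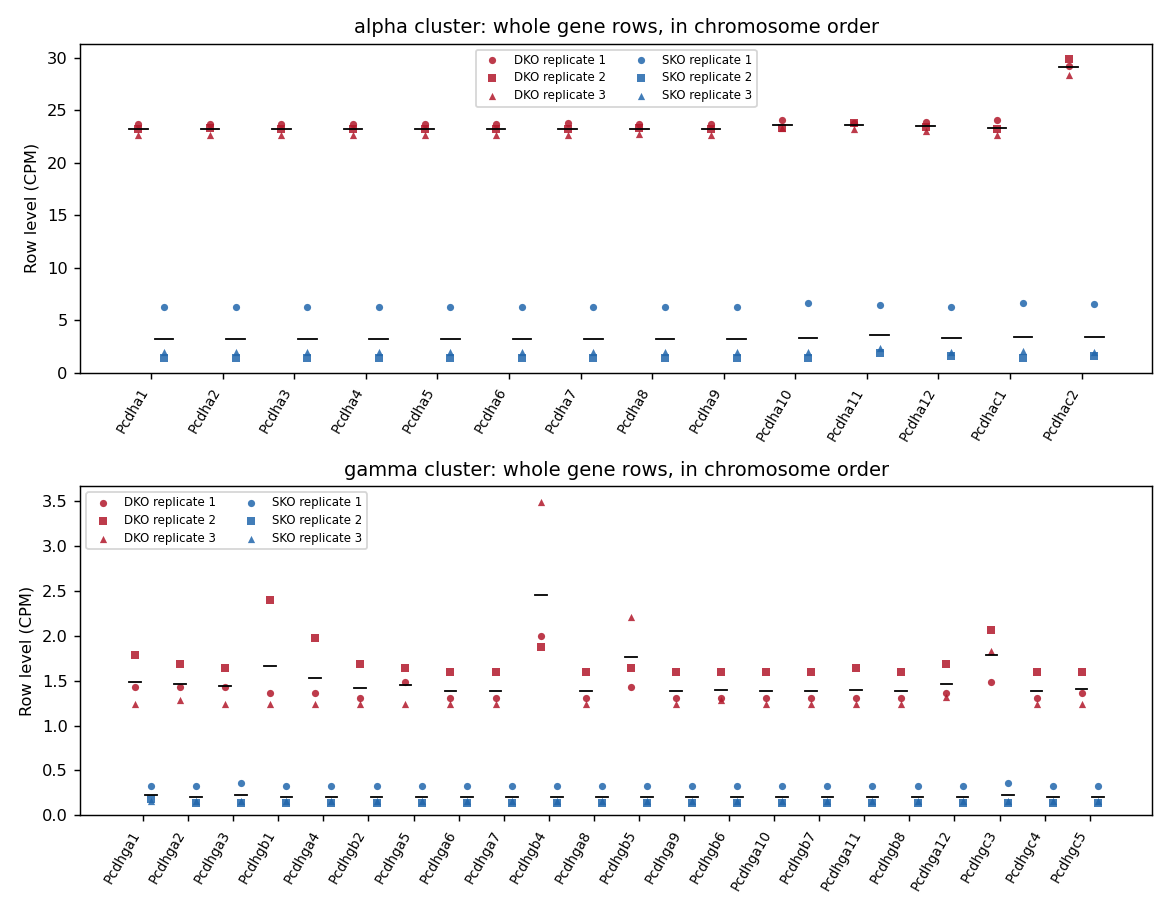
Level of every alpha row (top) and gamma row (bottom) in CPM, in chromosome order, with 1 point per library (DKO left, SKO right) and a bar at the mean of 3. The flat run of values is the shared count. Pcdhac2 stands above it in the alpha cluster at 29.1 CPM in DKO, and Pcdhgb4 in the gamma cluster at 2.46 CPM.

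The beta genes can be read one by one, since they share no exon in the annotation. Of 21, Pcdhb12 had 0 counts in all libraries, 9 (Pcdhb12 included) had 0 counts in SKO, and 12 had 10 counts or fewer over all 6 libraries. Only 4 passed the filter: Pcdhb3, Pcdhb8, Pcdhb15 and Pcdhb17. The beta genes are close relatives and can share reads, and the sources used here do not say how a read that fits several of them was counted.

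Pcdhb17 was the most abundant beta gene, at 4.16 ± 1.05 CPM per kilobase in DKO and 2.61 ± 0.95 in SKO. It had 198, 255 and 452 counts in the DKO libraries, against 148, 166 and 292 in the SKO libraries. In CPM this was 11.3, 12 and 17.6 in DKO, and 5.96, 7.65 and 12 in SKO. SKO replicate 3 reached the level of DKO replicate 2, so the genotypes overlapped, and the log2 fold change was 0.67 (SE 0.33), which was not called. Per kilobase it lay below the alpha shared exons in every DKO library. In SKO it lay above them in replicates 2 and 3 and below them in replicate 1, where it was 1.82 and they were 2.19.

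Pcdhb3 was the one called beta gene, and it passed the filter only through DKO, where it is high. It had 23, 49 and 34 counts in DKO, against 0, 6 and 0 counts in SKO. The levels were 1.64 ± 0.57 CPM in DKO and 0.0921 ± 0.16 CPM in SKO, with a log2 fold change of 4.15 (SE 1.07). All 6 SKO counts were in replicate 2, and without that library the fitted value was 8.23, which rests on SKO counts of 0. Leaving out DKO replicate 2 ended the call, and so did leaving out SKO replicate 1 or SKO replicate 3.

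Pcdhb15 and Pcdhb8 went separate ways and neither was called. Pcdhb15 had 18, 40 and 110 counts in DKO, against 8, 31 and 42 in SKO, with a log2 fold change of 1.05 (SE 0.71) and overlapping levels. Pcdhb8 had 4, 3 and 23 counts in DKO, against 26, 10 and 20 in SKO, with a log2 fold change of -0.84 (SE 0.78), also with overlap. It was the one tested member whose estimate was below 0. Both values moved with DKO replicate 3, without which Pcdhb15 was at 0.33 and Pcdhb8 at -2.07.

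The counts of untested beta genes were uneven between libraries of 1 genotype. Pcdhb16 had 13, 1 and 35 counts in DKO, against 1, 5 and 2 in SKO. Pcdhb9 had 27 counts in DKO replicate 3 and 0 in every other library. Pcdhb11 had 9 counts in DKO replicate 2 and 18 in SKO replicate 3, and 0 elsewhere. Pcdhb1 had 2, 10 and 1 counts in DKO, against 0, 0 and 11 in SKO. Pcdhb18 had 9 counts in DKO replicate 1 alone, and Pcdhb19 had 9 in DKO replicate 2 alone.

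**Figure D4:**
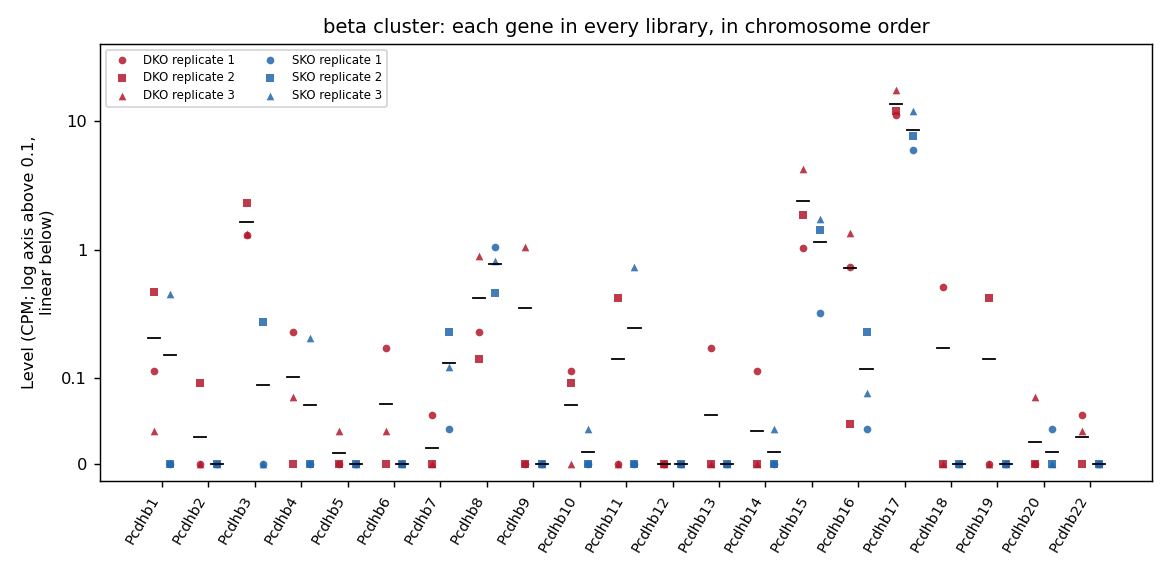
Level of each of the 21 beta genes in CPM, in chromosome order, on a log axis above 0.1 CPM and a linear one below, with 1 point per library (DKO left, SKO right) and a bar at the mean of 3. Pcdhb17 is high in all libraries, Pcdhb3 is apart between the genotypes, and most other genes lie at or near 0.

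Set side by side, the beta cluster had a smaller ratio between the genotypes than the other 2. Summed over its 21 genes it came to 16.1, 17.9 and 26.8 CPM in DKO, against 7.45, 10.3 and 16.2 CPM in SKO, which overlap by a small margin. The ratio of the mean levels was 1.79 (log2 0.84), beside 7.19 for the alpha and 6.64 for the gamma shared count. Pcdhb17 made up most of that sum. Without it the beta sum was 4.84, 5.87 and 9.2 CPM in DKO, against 1.49, 2.63 and 4.23 CPM in SKO, a ratio of 2.39 with no overlap. In both genotypes replicate 3 was the highest for the beta sum, whereas in SKO replicate 1 was the highest for alpha and gamma. The difference between clusters was not tested, because the contrast had chosen the genes.

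The clusters also differ in the start of their transcripts. In the first 300 bases of a GENCODE M21 transcript per gene, CpG dinucleotides numbered 14 in the median over 13 alpha genes, 6 over 21 beta genes and 14 over 22 gamma genes, against 13 over 21800 genes in all. Single genes ranged from 9 to 28 CpG dinucleotides in alpha, 2 to 16 in beta and 3 to 21 in gamma. The median GC content of the same bases was 54% for alpha, 45% for beta and 54.2% for gamma, against 57% over all genes.

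Inside the span of the clusters lie 5 other rows of the table. Gm37013, Gm38666 and Gm38667 run from alpha first exons to the gamma constant exons in the annotation. They held the gamma shared count to within 2 counts in every library, and their calls as higher (log2 fold change 2.69 to 2.73) repeat it and were lost without SKO replicate 2 or SKO replicate 3. Taf7, which encodes a subunit of the general transcription factor TFIID and sits between beta and gamma, had 4172, 4572 and 4920 counts in DKO, against 4037, 3992 and 4023 in SKO. Every DKO library lay above every SKO library in CPM, and the log2 fold change of 0.33 was not called (SE 0.16, edgeR adjusted p = 0.157). Slc25a2, its neighbour, had 0 counts in all 6 libraries.

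Of the 10 nearest rows on each side, 13 of 20 were tested, 0 were higher and 1 was lower, with a median log2 fold change of 0.08, beside 17.3% higher and 7.41% lower over all genes tested. With 13 genes nothing is read from that count. At an unadjusted p under 0.05 edgeR also gave 0 higher and 1 lower, and so did DESeq2 at an adjusted p under 0.05. Diaph1, a formin gene that starts just past the gamma constant exons, was the one that fell, at 188 ± 21.7 CPM in DKO and 268 ± 20.9 CPM in SKO (log2 fold change -0.51, SE 0.16, edgeR adjusted p = 0.0419). With the replicate number as a block the adjusted p was 0.0517. Without SKO replicates 1, 2 and 3 in turn it was 0.0766, 0.145 and 0.151, and with library totals alone 0.179. The histone deacetylase gene Hdac3, next to Diaph1, had a log2 fold change of 0.06 (SE 0.34), and Zmat2, the nearest tested gene before alpha, of -0.12 (SE 0.18).

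**Figure D5:**
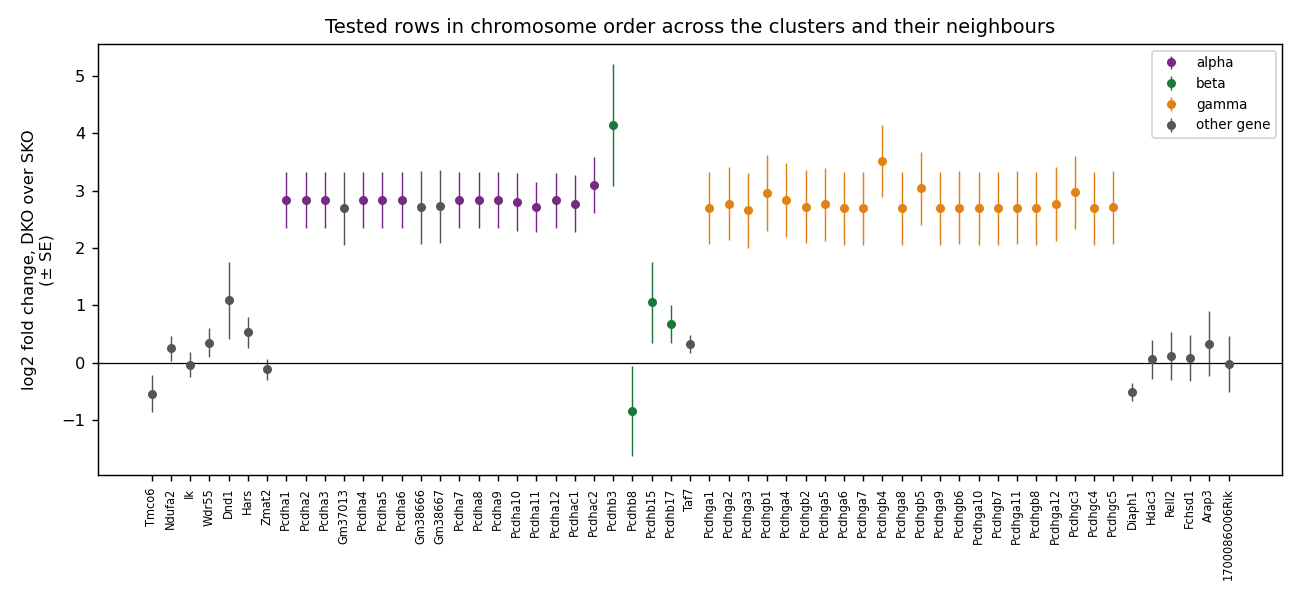
Log2 fold change of DKO over SKO with its SE (edgeR) for every tested row of the 3 clusters and of the genes around them, in chromosome order. The alpha and gamma rows and the 3 read-through loci lie between 2.66 and 3.52, the tested beta genes between -0.84 and 4.15, and the other neighbours between -0.54 and 1.09.

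The number of called genes among those that act on the clusters depended on the setting. Of 18 regulators, all tested, 0 were higher and 2 were lower, beside 17.3% higher and 7.41% lower over all genes, and the median log2 fold change was -0.19. At an unadjusted p under 0.05 edgeR gave 1 higher and 5 lower, the DESeq2 Wald test called 1 higher and 3 lower, and with library totals alone edgeR called 2 higher and 1 lower. Setdb1, the H3K9 methyltransferase gene, was 305 ± 43.1 CPM in DKO and 436 ± 24.3 CPM in SKO (log2 fold change -0.52, SE 0.16, edgeR adjusted p = 0.0406). Dnmt3a, a de novo DNA methyltransferase gene, was 270 ± 27.6 CPM in DKO and 417 ± 2.41 CPM in SKO (-0.63, SE 0.15, edgeR adjusted p = 0.0132). Its level is uncertain to the extent that an antisense gene overlaps it, since the sources used here do not say how strand was handled. Dnmt3b, which methylates these promoters in the embryo, was 43.4 ± 2.48 CPM in DKO and 27.4 ± 6.3 CPM in SKO, a difference that was not called (0.66, SE 0.22, edgeR adjusted p = 0.051). Ctcf was 199 ± 11.2 CPM in DKO and 194 ± 12.4 CPM in SKO, and Smchd1 was 149 ± 6.92 CPM in DKO and 182 ± 13.1 CPM in SKO. Neither was called. Without any 1 of the SKO libraries the list had 0 calls, and without DKO replicate 1 it had 1. With the replicate block it had 6, of which 5 were lower, and without DKO replicate 3 it had 7, all lower.

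Partners of the proteins were mixed. Of 20 listed, all tested, 3 were higher and 3 were lower, with a median log2 fold change of -0.08. The 6 calls are near the background of 24.7% over all genes, so the count is no result about the list. Ret, a receptor kinase gene reported to act with alpha and gamma protocadherins, rose to 78, 139 and 179 counts in DKO, against 8, 0 and 2 in SKO (log2 fold change 5.38, SE 0.77, edgeR adjusted p = 0.00078). It passed the filter only through DKO, and without SKO replicate 1, which held 8 of the 10 SKO counts, the fitted value was 6.92. Nlgn2, a postsynaptic adhesion gene, rose to 2.69 ± 1.59 CPM in DKO, against 0.675 ± 0.2 CPM in SKO, and Pdcd10, whose protein binds protocadherin tails, to 2.62 ± 0.53 CPM, against 0.896 ± 0.22 CPM in SKO. Psen2, which encodes a subunit of a protease that cuts these proteins in the membrane, fell to 31 ± 5.51 CPM in DKO, against 48.6 ± 4.05 CPM in SKO. Wasf2, of the actin-regulating WAVE complex, fell to 218 ± 34.9 CPM in DKO, against 445 ± 58.7 CPM in SKO (-1.03, SE 0.18, edgeR adjusted p = 0.00244). Leaving out any 1 library other than DKO replicate 3 left 3 calls in the list, 1 higher and 2 lower, and the calls of Nlgn2, Pdcd10 and Psen2 were lost under each of these.

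The libraries matched their labels as far as the counts can show it. Rnf2 had 989, 654 and 589 counts in DKO, against 5041, 3901 and 4563 in SKO (log2 fold change -2.38, SE 0.30, edgeR adjusted p = 0.000349). The sources used here do not say which exons the deletion removes. Ring1 summed to 19 counts in DKO and 10 in SKO. Total counts ranged from 15521975 to 26652745 in DKO and from 22990699 to 26437540 in SKO. Oocyte markers summed to 12300 to 15700 CPM in DKO and 20900 to 21900 CPM in SKO. Of the 13, 0 were called higher and 6 lower, beside 17.3% higher and 7.41% lower over all genes tested. At an unadjusted p under 0.05 edgeR gave 0 higher and 8 lower, and DESeq2 called 0 higher and 6 lower. The most abundant were Gdf9 (3997 CPM in DKO, 5658 in SKO), Bmp15 (2242 in DKO, 3585 in SKO) and Nlrp5 (1858 in DKO, 2333 in SKO). Of the granulosa and cumulus markers given above, 4 of 10 tested were higher, Fshr and Nr5a2 among them, and 1 was lower, which was Cyp19a1. Of the theca, stroma and endothelium markers 5 of 8 tested were higher and 1 was lower. Beside both counts, 17.3% of all genes tested were higher and 7.41% lower. Among the markers called higher, Gja1 of the granulosa list passed the filter only through DKO, where it is high. The same holds for Col1a1, Dcn and Lum of the other list. Nothing is read from these counts. Pecam1 was at 61 CPM in DKO and 109.6 CPM in SKO, Kdr at 11.6 CPM in DKO and 3.68 CPM in SKO, and Pdgfra at 4.99 CPM in DKO and 0.766 CPM in SKO. Markers of blood and immune cells summed to 3.19 to 4.84 CPM in DKO and 1.89 to 3.3 CPM in SKO, and Hba-a1 and Hbb-bs were at 0. The 1 tested, Cd68, was at 2.47 CPM in DKO and 2.02 CPM in SKO and was not called.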

How the data were processed

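RNA of 15 pooled GV oocytes per mouse was amplified with the Ovation v2 kit before sequencing, per the labels' protocols, so intervals and floors cover counting error only. The authors deposited raw read counts per Entrez gene, with a gene length that is used here only for levels per kilobase. The submitters' processing notes name STAR 2.5.0a, GRCm38 and mm10. For counter, annotation, strand and reads that fit several genes, the sources used here give nothing. Symbols and coordinates came from RefSeq (24387 of 24421 identifiers matched), and exons from GENCODE M21. No sample column was left unused (0).

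edgeR 4.0.16 in R 4.3.3 compared the genotypes over 14845 genes (filterByExpr, minimum count 10 and minimum total 15, TMM scaling, two-sided quasi-likelihood test, Benjamini-Hochberg adjustment, calls at 0.05). CPM uses TMM-scaled library sizes, fold changes are DKO over SKO, and the SE comes from the F statistic. The code was tested on simulated counts. Members and lists were chosen with earlier results of these data known. Named genes are Rnf2, Ring1, the C-type genes, the extremes of each cluster by level, the tested beta genes, the 3 largest alpha and gamma excesses in DKO, the genes inside the clusters, called neighbours and called list members, and the most abundant markers. The untested beta genes, Pcdha12, Pcdhgb1, Hdac3, Zmat2, Ctcf, Smchd1, Dnmt3b and Amh were added after their values were seen. So were Inhba, Gja1, Kitl, Dcn, Star, Col1a1 and Lum, and the other granulosa, theca, stroma and endothelium markers named. No sequence is printed, and 1 called member of the partner list is not reported here.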

Additional observations from a re-analysis of the deposited data

How the results depend on the processing

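In every alternative that gave a value the alpha, beta and gamma levels stayed higher in DKO, and alpha and gamma calls stayed higher. Replacing near-identical rows (counts within 5% or 2 counts in every library) by 1 row left 6 alpha and 6 gamma vectors. All 6 were called in each, beside 3634 of 14821 genes tested. Nothing is read from these calls, since this contrast chose the genes and the gamma rows passed the filter only through DKO. Calls over all genes ranged from 2386 to 4205 when 1 library was left out. Alpha calls then ranged from 8 to 10 (8 where only 8 vectors were distinct), beta calls from 0 to 1 and gamma calls from 4 to 15. Neighbour calls ranged from 0 to 4, with the rows inside the clusters included. With all libraries these calls were Gm37013, Gm38666, Gm38667 and Diaph1. When 1 library was left out, regulator calls ranged from 0 to 7 and partner calls from 3 to 6. The log2 ratio of the alpha level ranged from 2.48 to 3.75, that of beta from 0.57 to 1.17 and that of gamma from 2.5 to 3.17. Regulator calls were 4 with the DESeq2 Wald test. The labels share replicate numbers: with the replicate block regulator calls were 6, Diaph1, Nlgn2 and Pdcd10 were no longer called, and Gdf9 was (edgeR adjusted p = 0.0319, against 0.164). Deviations of same-numbered libraries correlated at 0.167, 0.0843 and 0.0562 across genes, not all over 0.1, so the numbers were not taken as pairs. Every library deviated most like its own number in the other genotype (3 of 3 in each). Both counts were read from the same correlations and are not independent. They are at most a hint of pairing from the data and not from the design. With library totals alone the all-gene median was 0.20 in place of 0.04, and 83% in place of 70% of calls were higher. Without DKO replicate 2 the 1 beta call was Pcdhb16 in place of Pcdhb3. Taking the median log2 ratio over beta genes gave 0.40. Low counts limit the gamma and most beta genes, and the cause of these shifts was not tested.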
